A study of Mus musculus with 6 samples.

Results

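Thioredoxins, their reductases and the peroxiredoxins that they serve were followed in 3T3-L1 adipocytes made to express uncoupling protein 1 (UCP1). The genes were taken by symbol, as probes to which the platform annotation gave exactly 1 symbol. Of 10 genes named, 8 were measured, each by 1 probe, out of 18069 gene symbols on 36227 probes in the table. These were the mitochondrial Txn2, Txnrd2 and Prdx3 and the cytosolic Txn1, Txnrd1, Prdx1, Prdx2 and Srxn1. Prdx5 and Prdx6 were not analysed here.

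Thioredoxins are small proteins that reduce disulfides in other proteins and are themselves reduced by thioredoxin reductases, selenoenzymes that draw electrons from NADPH. Peroxiredoxins use thioredoxin to remove hydrogen peroxide, and sulfiredoxin, the product of Srxn1, rescues peroxiredoxins whose active cysteine has been overoxidised. Mitochondria hold their own set, encoded by separate genes, and the proton leak through UCP1 in brown fat is known to bear on how much superoxide the respiratory chain makes.

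3T3-L1 is a mouse preadipocyte line that turns into fat-laden cells when given adipogenic agents. The 2 groups were adipocytes expressing UCP1 (3 arrays) and adipocytes with the Tet-off plasmid alone (3 arrays, called control), both collected at day 10 of differentiation and read on one-colour CodeLink whole genome arrays. Group membership follows the labels' source field, where all 3 UCP1 arrays are given uncoupling protein 1. The titles of these arrays close with the letters UCP and a digit that differs between arrays; the digit was taken as an array number, and the labels do not settle this. The promoter that drove UCP1, whether the cells were 1 clone or a pool, and whether doxycycline was used are unstated in those sources. No label says that the arrays of a group were separate cultures, so the p-values reflect array-to-array spread alone, and that spread may be technical.

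Ucp1, the gene that was expressed, read 2.34, 2.02 and 1.54 on the UCP1 arrays, against 0.222, 0.232 and 0.278 on the control arrays, in units where the median probe of an array is close to 1. The median of the 9 measured adipocyte markers was brighter than 99.3% to 99.6% of the probes of an array, while the dimmest, Lipe, lay between 2.98% and 15.7%. Their summed intensity was 2820 to 3890 on UCP1 arrays and 3420 to 3930 on control arrays, a sum that the brightest of them carry. Of the 9, 1 fell and 0 rose, where 2.03% of all tested probes were called lower and 0.800% higher. Slc2a4, the insulin-responsive glucose transporter, was the marker that fell. It read 5.95, 7.38 and 6.26 on the UCP1 arrays, against 12.8, 9.97 and 10.1 on the control arrays. Its log2 change was -0.74 (limma, adjusted p = 0.0152, with 0.0386 after quantile normalization and 0.0419 after cyclic loess), and the call ended without UCP1 array 3 (0.114) or control array 1 (0.0635). The other probe of Slc2a4 stood at -0.44 and was not called. The median of the 9 was -0.12 in the deposited scaling, and turned to 0.09 after quantile normalization and 0.22 after cyclic loess. Of 12 markers of preadipocytes and fibroblasts, 4 rose (Dcn, Lum, Thy1 and Pdgfra) and 0 fell, with a sum of 1170 to 1500 on UCP1 arrays and 1120 to 1410 on control arrays. Another 5 of the 12 lay below 0 and were not called. These were Col1a2 at -0.34, Cd34 at -0.29, Col1a1 at -0.21, Vim at -0.13 and Col3a1 at -0.06. Each marker was counted by its brightest probe. Dlk1 was not called by that probe, at 0.34, but its other probe was called, at 1.08. The other probe of Pdgfra stood at 0.16 and was not called. After quantile normalization and after cyclic loess 6 of the 12 rose, with Pdgfrb and S100a4 added, and the median change was 0.56 under each, against 0.34 in the deposited scaling. Of 6 macrophage markers 1 rose, the lysozyme gene Lyz2, and 3 lay below 0. Their sum was 14.4 to 15.2 on UCP1 arrays and 11.6 to 16.8 on control arrays. Cd14 carried most of that sum, at 11.4, 10.5 and 10.6 on the UCP1 arrays, against 13.9, 14.4 and 9.99 on the control arrays. Its log2 change was -0.22, not called. Of the markers that rose, Dcn, Lum, Thy1 and Pdgfra each lost the call without 1 or more single arrays, Dcn without any of the control arrays, while Lyz2 kept it. The leukocyte marker Ptprc read at most 0.179 on UCP1 arrays and 0.134 on control arrays. Endothelial markers summed to 1.51 to 2.24 on UCP1 arrays and 1.38 to 2.11 on control arrays, and skeletal muscle markers to 6.15 to 8.05 on UCP1 arrays and 8.15 to 10 on control arrays, with 0 of 6 and 0 of 8 past the threshold (limma, with 0 and 1 at an unadjusted p under 0.05). The part of these markers in the results that follow was not tested. In such RNA pools, fewer cells of a type and less RNA per cell cannot be told apart.

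In UCP1 adipocytes 3 of the 8 genes fell and 0 rose, against 4 and 0 at an unadjusted p under 0.05 (limma). They were Txn2 and Txnrd2, the mitochondrial thioredoxin and its reductase, and cytosolic Srxn1. Of all tested probes 2.03% were called lower and 0.800% higher (limma, Benjamini-Hochberg adjusted p under 0.05). In the same fit 6161 of the 36116 tested probes, lower or higher, had an unadjusted p under 0.05. The 8 genes had a median change of -0.44 on the log2 scale, UCP1 over control, against -0.06 over all 36116 tested probes and -0.09 over the brighter part of them. In 5 of the 8 every UCP1 array lay below every control array, as in 14.0% of all tested probes. The median over the 3 mitochondrial genes was -0.74, and over the 5 cytosolic genes it was -0.12. After quantile normalization these medians were -0.61 and 0.14, and after cyclic loess -0.62 and 0.11, so the cytosolic median turned above 0. The calls rest on limma's intensity trend: without it 0 of all tested probes passed (4951 at an unadjusted p under 0.05), and Txn2, Txnrd2 and Srxn1 stood at adjusted p = 0.284, 0.206 and 0.252.

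Txn2, the thioredoxin of the mitochondrial matrix, read 8.92, 11.9 and 9.92 on UCP1 arrays 1, 2 and 3, against 21.2, 16.6 and 13.9 on control arrays 1, 2 and 3. The groups did not overlap, and UCP1 array 2 and control array 3 were the closest pair. Its mean was 10.3 ± 1.54 in UCP1 and 17.2 ± 3.68 in control (SD, n = 3 each), a log2 change of -0.74 ± 0.161 (SE; limma, adjusted p = 0.0341). The call ended after quantile normalization, at -0.61 (adjusted p = 0.0981), and after cyclic loess, at -0.62 (adjusted p = 0.106). It also ended without UCP1 array 1 (adjusted p = 0.0598), UCP1 array 3 (0.178), control array 1 (0.127) or control array 2 (0.0881).

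Txnrd2, which reduces Txn2 with NADPH, had the smallest p of the 8 genes. It read 4.48, 4.49 and 4.13 on the UCP1 arrays, against 7.72, 7.18 and 7.10 on the control arrays. The gap between the groups was wider than the range within either. Its mean was 4.37 ± 0.205 in UCP1 and 7.33 ± 0.335 in control (SD, n = 3 each), and it fell 1.68-fold (limma, adjusted p = 0.00581), a log2 change of -0.75 ± 0.110 (SE). After quantile normalization it fell by 0.66 (adjusted p = 0.00599) and after cyclic loess by 0.67 (adjusted p = 0.00623). The call ended without UCP1 array 3 (-0.71, adjusted p = 0.0625).

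Prdx3, the typical 2-cysteine peroxiredoxin of mitochondria and a substrate of Txn2, read 32.8, 53.0 and 37.9 on the UCP1 arrays, against 65.8, 59.2 and 55.1 on the control arrays. UCP1 array 2 lay close to the lowest control array, and the other UCP1 arrays lay well below it. The log2 change of -0.57 ± 0.171 (SE) did not pass (limma, adjusted p = 0.1), and the change was -0.39 after quantile normalization. Without UCP1 array 2 it passed, at -0.76 (adjusted p = 0.00951), and it also passed within the brighter part of the probes (-0.57, adjusted p = 0.042). Prdx3 was the single member of the mitochondrial set that did not pass in the deposited scaling over all tested probes and all arrays.

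**Figure D1:**
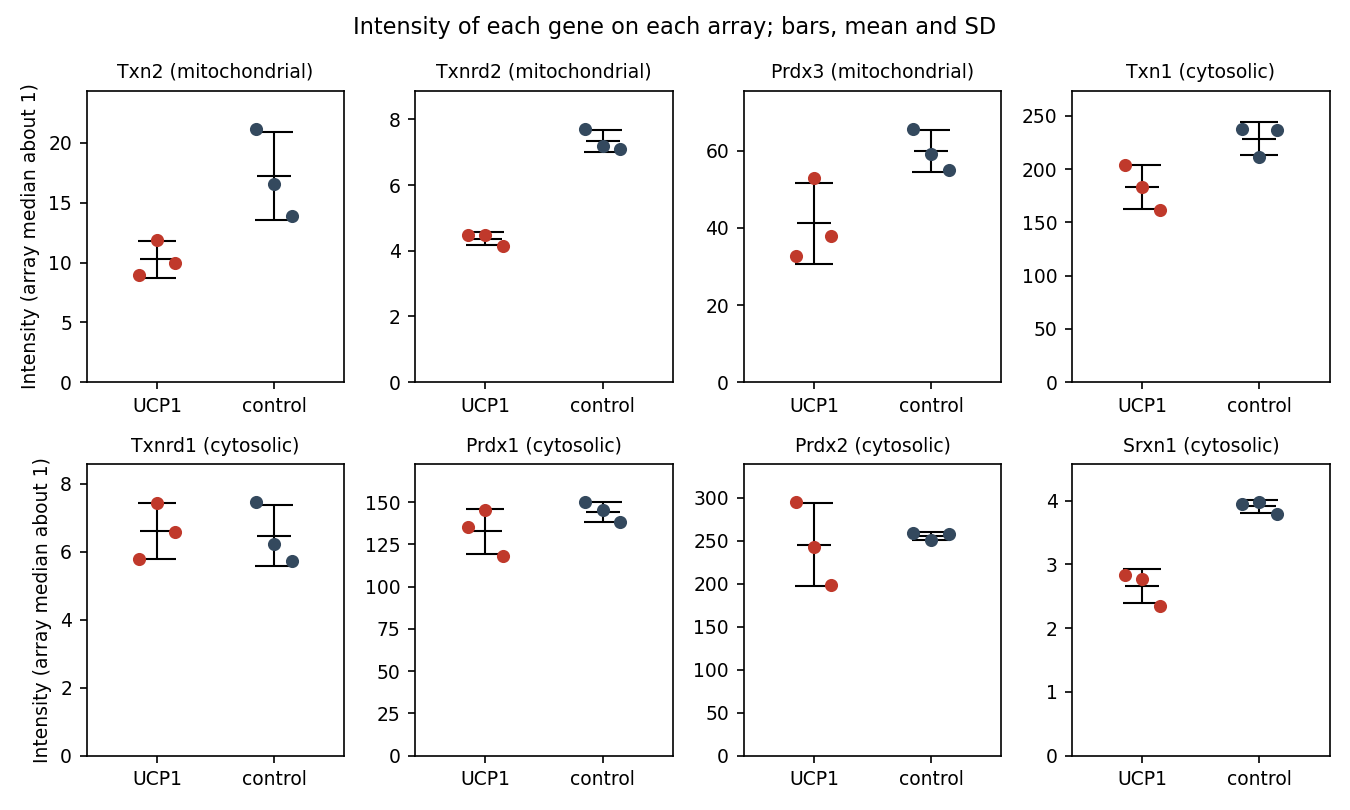
Intensity (vertical axis, from 0, array median about 1) of the 8 genes on 3 UCP1 and 3 control arrays. Points are arrays, with array 1 at the left of each group and array 3 at the right, and bars give the mean and SD. Txn2, Txnrd2, Prdx3, Txn1 and Srxn1 do not overlap between the groups, while Txnrd1, Prdx1 and Prdx2 do.

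Among the cytosolic genes, Srxn1 was the 1 of 5 that fell. It read 2.84, 2.78 and 2.35 on the UCP1 arrays, against 3.95, 3.98 and 3.80 on the control arrays, with no overlap. Its mean was 2.66 ± 0.268 in UCP1 and 3.91 ± 0.0993 in control (SD, n = 3 each). It fell 1.48-fold (limma, adjusted p = 0.0384), a log2 change of -0.56 ± 0.126 (SE), and the change was -0.50 after quantile normalization (adjusted p = 0.0463). The call ended without UCP1 array 3 (adjusted p = 0.2) and without control array 1 (0.127), 2 (0.125) or 3 (0.0833), and with the replicate block (0.0573). Srxn1 acts on the cytosolic peroxiredoxins Prdx1 and Prdx2, which did not pass.

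Prdx1, an abundant cytosolic peroxiredoxin, read 135, 145 and 118 on the UCP1 arrays, against 150, 145 and 138 on the control arrays. UCP1 array 2 and control array 2 were level to 3 digits, and the groups overlapped. The log2 change was -0.12, with a 95% interval of -0.45 to 0.21 (limma, adjusted p = 0.735), and turned to 0.16 after quantile normalization and 0.11 after cyclic loess. Prdx2, its close relative, known from red blood cells, read 295, 243 and 198 on the UCP1 arrays, against 259, 251 and 258 on the control arrays. The UCP1 arrays lay on both sides of the tightly grouped controls. The log2 change was -0.08, with a 95% interval of -0.49 to 0.34 (limma, adjusted p = 0.877), and turned to 0.28 after quantile normalization, 0.19 after cyclic loess and 0.066 without UCP1 array 3.

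Txn1, the cytosolic thioredoxin, read 204, 183 and 162 on the UCP1 arrays, against 238, 211 and 237 on the control arrays. The groups did not overlap, but UCP1 array 1 came close to control array 2. The log2 change of -0.32 ± 0.168 (SE) did not pass (limma, adjusted p = 0.367). It was -0.08 after quantile normalization and -0.07 after cyclic loess. Txnrd1, the cytosolic reductase of Txn1, read 5.78, 7.44 and 6.57 on the UCP1 arrays, against 7.46, 6.22 and 5.72 on the control arrays. The groups covered nearly the same range. The log2 change was 0.03, with a 95% interval of -0.27 to 0.33 (limma, adjusted p = 0.939), and was -0.06 without UCP1 array 2 and -0.05 without control array 3.

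The scaling bore on the brightest genes most. The tenth of probes with the highest level had a median change of -0.19 in the deposited scaling, and 84.9% of them lay below 0, against 56.9% of all tested probes. Txn1, Prdx1 and Prdx2 were brighter than at least 96.4% of the probes of every array, and Txnrd2 and Srxn1 lay between 64.5% and 77.9%. Quantile normalization and cyclic loess each moved the changes of Txn1, Prdx1 and Prdx2 upward by more than those of Txnrd2 and Srxn1. The 8 genes had a median of -0.24 after quantile normalization and -0.23 after cyclic loess, with 2 called lower (Txnrd2 and Srxn1) and 0 higher under each, and 5 of 8 below 0. The median of all tested probes was then 0.02 and 0.01, with 446 and 460 of the 36116 called lower and 567 and 517 higher.

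**Figure D2:**
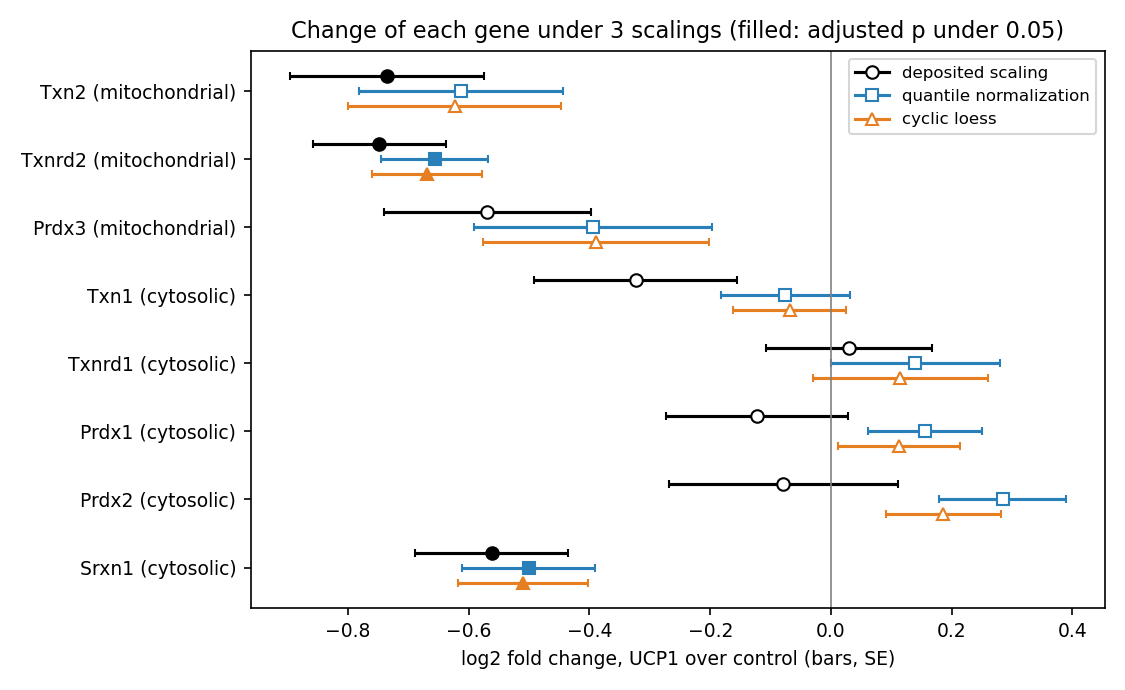
Change of the 8 genes as log2 fold change of UCP1 over control (horizontal axis; bars, SE from limma) in the deposited scaling, after quantile normalization and after cyclic loess. Filled symbols have an adjusted p under 0.05. Txnrd2 and Srxn1 are filled under all 3 scalings, Txn2 in the deposited scaling alone, and Prdx1 and Prdx2 change sign.

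Each mitochondrial gene was set against its cytosolic counterpart within each array, which removes any factor common to both probes on that array. Only the shift of this difference between the groups can be read, since 2 probes need not bind equally well. Txnrd2 minus Txnrd1 was -0.37, -0.73 and -0.67 on the log2 scale on the UCP1 arrays, against 0.05, 0.21 and 0.31 on the control arrays. The groups lay apart, by -0.78, with means of -0.59 ± 0.194 in UCP1 and 0.19 ± 0.133 in control (SD, n = 3 each; two-sided exact permutation test, p = 0.1, the smallest that 3 against 3 arrays allow).

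Prdx3 minus Prdx1 was -2.04, -1.45 and -1.65 on the UCP1 arrays, against -1.18, -1.29 and -1.32 on the control arrays. The groups again lay apart, by -0.45 (exact permutation p = 0.1), with UCP1 array 2 nearest the controls. Txn2 minus Txn1 was -4.52, -3.93 and -4.03 on the UCP1 arrays, against -3.49, -3.67 and -4.09 on the control arrays. These overlapped, since control array 3 lay below UCP1 arrays 2 and 3, and the shift of -0.41 had an exact permutation p of 0.3. Adjusted over the 3 pairs the p-values were 0.15, 0.15 and 0.3, so none could or did pass. The shifts after quantile normalization were -0.80 for the reductases, -0.55 for the peroxiredoxins and -0.54 for the thioredoxins. Without UCP1 array 1 the shift of the peroxiredoxin pair was -0.28 and that of the thioredoxin pair -0.23.

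**Figure D3:**
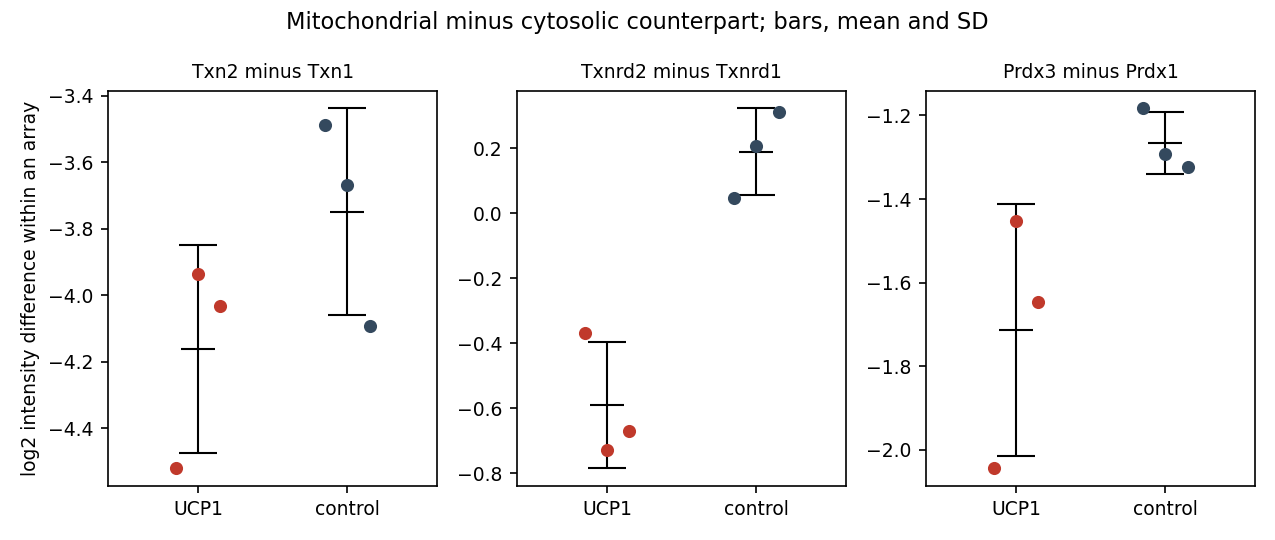
Difference in log2 intensity between each mitochondrial gene and its cytosolic counterpart within an array (vertical axis, not from 0), on 3 UCP1 and 3 control arrays. Points are arrays in the order 1 to 3, and bars give the mean and SD. The groups are apart for Txnrd2 minus Txnrd1 and for Prdx3 minus Prdx1, and they overlap for Txn2 minus Txn1.

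The upstream sequences of 4 genes are shown to set the genes that fell (Srxn1, Txn2 and Txnrd2) beside a cytosolic gene that did not pass (Prdx1), because Srxn1 and Prdx1 are textbook targets of NRF2, the transcription factor of the oxidant response. Each is the 250 bases before the RefSeq start site on GRCm38.p6, 5′ to 3′ on the gene's strand, and capitals mark matches to the antioxidant response core TGACNNNGC or to TGANTCA, a core shared by AP-1 and NRF2 sites, on either strand. They lie at chr2:152105274-152105523 (plus strand), chr4:116685349-116685598 (plus strand), chr15:77928995-77929244 (minus strand) and chr16:18426167-18426416 (plus strand).
Srxn1: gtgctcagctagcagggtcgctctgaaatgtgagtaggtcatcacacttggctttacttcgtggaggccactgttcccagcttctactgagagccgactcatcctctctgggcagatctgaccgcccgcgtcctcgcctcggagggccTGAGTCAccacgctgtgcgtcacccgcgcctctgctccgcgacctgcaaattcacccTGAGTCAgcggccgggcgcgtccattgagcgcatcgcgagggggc
Prdx1: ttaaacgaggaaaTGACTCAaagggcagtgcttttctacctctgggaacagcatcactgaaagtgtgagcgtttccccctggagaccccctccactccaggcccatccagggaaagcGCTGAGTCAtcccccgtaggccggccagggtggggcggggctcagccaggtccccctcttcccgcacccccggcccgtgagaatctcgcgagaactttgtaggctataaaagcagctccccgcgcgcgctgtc
Txn2: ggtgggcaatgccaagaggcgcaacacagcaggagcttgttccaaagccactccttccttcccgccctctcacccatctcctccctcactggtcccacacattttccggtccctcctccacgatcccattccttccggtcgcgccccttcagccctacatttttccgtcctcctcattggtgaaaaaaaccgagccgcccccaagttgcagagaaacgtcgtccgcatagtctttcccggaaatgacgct
Txnrd2: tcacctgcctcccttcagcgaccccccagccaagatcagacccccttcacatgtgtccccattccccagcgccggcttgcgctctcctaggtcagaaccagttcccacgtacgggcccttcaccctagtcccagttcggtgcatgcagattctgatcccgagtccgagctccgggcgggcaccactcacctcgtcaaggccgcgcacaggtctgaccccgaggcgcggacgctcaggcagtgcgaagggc
The Srxn1 sequence held 2 matches to TGANTCA, beginning 102 and 45 bases before the start site, and the Prdx1 sequence held 2, beginning 237 and 131 bases before it. The second of these in Prdx1 overlapped a match to TGACNNNGC on the other strand. In the 50 bases past the start, not shown, Srxn1 held 1 match to TGACNNNGC. Neither core was found in the windows of Txn2 or Txnrd2, which fell, nor in those of Prdx3, Txn1 and Prdx2, which did not pass. Of the start sites listed for Txnrd1, 1 had a match to TGACNNNGC, beginning 92 bases before it. Matches were thus found and missing among both the genes that fell and those that did not pass. In windows of 300 bases, 50 of them past the start, 12.4% of 32851 mouse promoters held TGACNNNGC and 7.81% held TGANTCA. A match is a run of letters, and no binding was measured.

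The genes that work around the thioredoxins were read by list. Of all tested probes 2.03% were called lower and 0.800% higher. A list of relatives with a thioredoxin fold, to which the inhibitor Txnip was added, held 16 measured genes. Of these 0 fell and 0 rose (limma, with 2 lower and 1 higher at an unadjusted p under 0.05). Their median was -0.20, which was 0.02 after quantile normalization. Txnip, the inhibitor that binds thioredoxin and follows glucose supply, read 266, 198 and 204 on the UCP1 arrays, against 274, 281 and 214 on the control arrays. The groups overlapped (log2 change -0.21 ± 0.194, SE; adjusted p = 0.643), and the change turned to 0.06 after quantile normalization. The other probe of Txnip stood at -0.45 in the deposited scaling and was not called. The members with the smallest p were the nucleoredoxin gene Nxn, at -1.26, which was dim and passed without UCP1 array 2 at -1.75 (adjusted p = 0.00573), and Txndc5, a protein of the endoplasmic reticulum, at -0.36, which was -0.22 after quantile normalization. Of 11 clients and partners of thioredoxin 0 passed (limma, 1 at an unadjusted p under 0.05), with a median of -0.16, which was -0.06 after quantile normalization and -0.08 after cyclic loess. Map3k5, the stress kinase ASK1 that reduced thioredoxin holds inactive, averaged 2.94 ± 0.0582 in UCP1 and 3.82 ± 0.121 in control (SD, n = 3 each), a log2 change of -0.38 (limma, adjusted p = 0.107). The groups did not overlap. The methionine sulfoxide reductase Msrb2 was at -0.24, and at -0.13 both after quantile normalization and without UCP1 array 2.

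Suppliers of NADPH, the electron source of both reductases, were also measured in both compartments. Of 6 mitochondrial suppliers 1 fell (limma, 4 at an unadjusted p under 0.05), and all 6 lay below 0, with a median of -0.45. The one that fell was Aldh1l2, a folate enzyme that makes NADPH in mitochondria. Aldh1l2 read 4.07, 4.71 and 4.41 on the UCP1 arrays, against 8.11, 7.58 and 11.8 on the control arrays. It fell 2.05-fold (limma, adjusted p = 0.00736) and passed after quantile normalization as well (adjusted p = 0.0203), but not without UCP1 array 3 (adjusted p = 0.0696). Of 7 cytosolic suppliers 0 passed (limma, 3 at an unadjusted p under 0.05), with a median of -0.29. By their brightest probe all 7 lay below 0. Those with the smallest p were Taldo1, of the pentose phosphate pathway, at -0.40, which was -0.17 after quantile normalization, and the isocitrate dehydrogenase Idh1 at -0.64. Idh1 passed without UCP1 array 2 at -0.96 (adjusted p = 0.0218), and stood at -0.29 without UCP1 array 1 (adjusted p = 0.469). Both lists kept a median below 0 after quantile normalization, at -0.34 and -0.14. Cytosolic Aldh1l1 turned from -0.13 to 0.01 there. Its other probe stood at 0.45 in the deposited scaling and was not called. Of all tested probes 56.9% lay below 0 in the deposited scaling.

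Of 19 genes of the NRF2 axis 1 fell and 0 rose (limma, with 7 lower and 0 higher at an unadjusted p under 0.05). The median was -0.21, and -0.08 after quantile normalization. The one that fell was Abcc1, an exporter of glutathione conjugates, with a log2 change of -0.80 (limma, adjusted p = 0.0166, and 0.0723 after quantile normalization). Its other probe stood at 0.11, and the call ended without UCP1 array 3 (0.0766), control array 1 (0.0658) or control array 2 (0.0503). In the glutathione and superoxide list, 1 of 14 fell and 1 rose (limma, with 5 lower and 1 higher at an unadjusted p under 0.05). The median was -0.29. After quantile normalization and after cyclic loess 0 fell and 1 rose, with medians of -0.04 and -0.14. Sod2, the superoxide dismutase of mitochondria, averaged 19.4 ± 1.38 in UCP1 and 28.6 ± 3.34 in control (SD, n = 3 each) and fell 1.47-fold (limma, adjusted p = 0.0369, and 0.0604 after quantile normalization). Gpx8, a peroxidase of the endoplasmic reticulum, averaged 85.3 ± 10.5 in UCP1 and 55.0 ± 5.42 in control (SD, n = 3 each) and rose 1.55-fold (limma, adjusted p = 0.0409, and 0.00247 after quantile normalization). Sod2 lost its call without UCP1 array 3 or any 1 control array (adjusted p = 0.0514 to 0.179), and Gpx8 without UCP1 array 2 or 3 or any 1 control array (0.0536 to 0.159).

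Both thioredoxin reductases contain selenocysteine. Of 15 other genes for selenoproteins and their synthesis 0 passed (limma, 6 at an unadjusted p under 0.05), with a median of -0.20 and of -0.03 after quantile normalization. Selenot and Selenom, 2 proteins of the endoplasmic reticulum, had the smallest p, at -0.47 and 0.35, and the 3 probes of Selenot ranged from -0.47 to 0.86. Besides Gpx8, 1 gene not called in the deposited scaling rose after quantile normalization in each of 4 other lists. They were Selenom (0.48), Prdx4 among the relatives (0.43), the sestrin Sesn3 among the clients (0.47) and the glutathione transferase Gsta4 of the NRF2 axis (0.51). After cyclic loess Gsta4 was not called. Among mitochondrial proteins of other pathways, 2 of 22 measured fell (limma, 16 at an unadjusted p under 0.05). All 22 lay below 0, with a median of -0.43. In 18 of the 22 every UCP1 array lay below every control array, as in 14.0% of all tested probes. Of all tested probes 56.9% lay below 0, and of the tenth with the highest level 84.9%. The 2 that fell were Atp5b, a subunit of ATP synthase, at -0.95, and the import factor Timm44, at -0.51, both lost after quantile normalization (adjusted p = 0.147 and 0.0965), where the median was -0.16 and 19 of 22 lay below 0. Without UCP1 array 3 both calls ended as well (adjusted p = 0.195 and 0.152), as they did without control array 1 or 2, for Atp5b without UCP1 array 1 and for Timm44 without control array 3. Atp5b read 21.8, 41.9 and 26.8 on the UCP1 arrays, against 67.1, 55.7 and 47.6 on the control arrays, with UCP1 array 2 nearest the controls as for Prdx3. These lists were described by counts and medians, and whether the thioredoxin set differed from other mitochondrial genes was not tested.

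**Figure D4:**
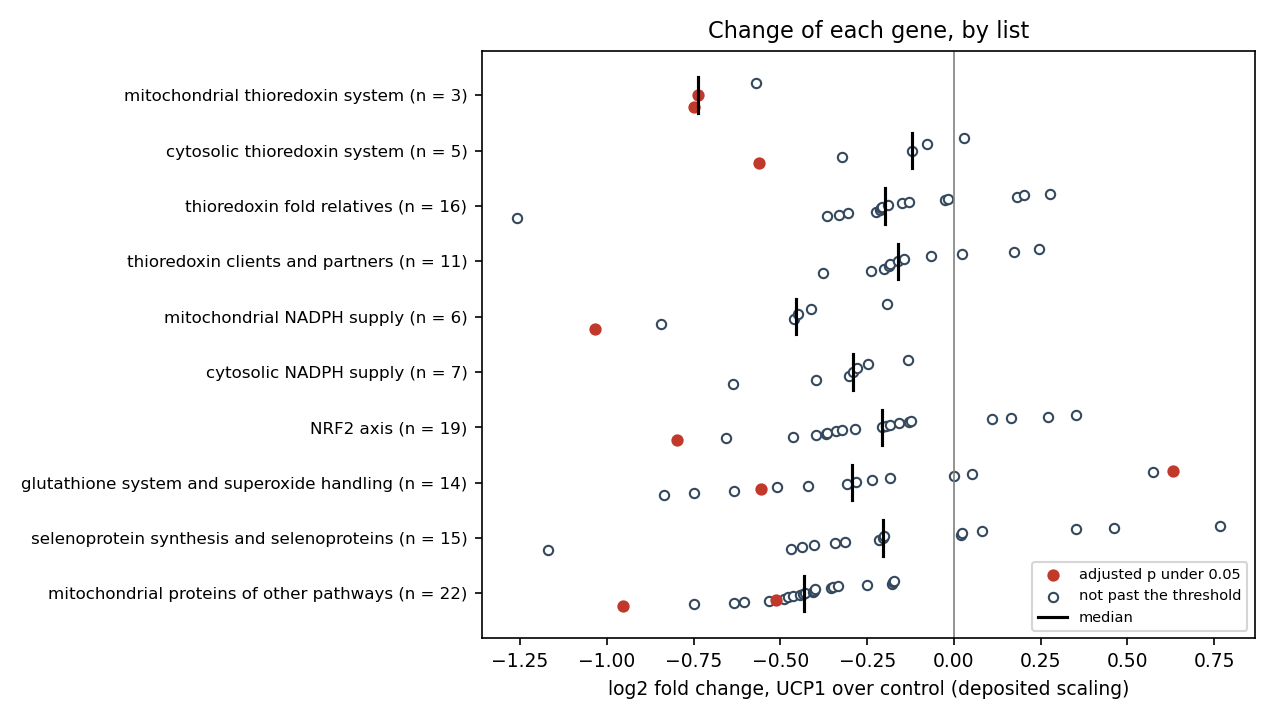
Log2 fold change of UCP1 over control (horizontal axis) for each measured gene of the thioredoxin system and of 8 related lists, in the deposited scaling. Each point is a gene by its brightest probe, red where the adjusted p was under 0.05, and black bars are medians. The mitochondrial thioredoxin set, both NADPH lists and the other mitochondrial proteins lie wholly below 0 in this scaling. After quantile normalization 19 of the 22 other mitochondrial proteins and 6 of the 7 cytosolic NADPH suppliers lay below 0. The list of thioredoxin fold relatives also holds the inhibitor Txnip.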

How the data were processed

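RNA of 6 arrays was labelled with biotin and read on one-colour CodeLink arrays, per the labels' protocols. Deposited intensities were linear and already scaled by the authors, as judged from array medians close to 1; no source names the scanner software, background step or scaling method. The code -9999 was taken as missing, and values at or below 0 were raised to their array's lowest positive value before log2. The fit used 36116 probes with at least 2 values per group, limma 3.58.1 in R 4.3.3 with an intensity trend, two-sided, with Benjamini-Hochberg adjustment over all of them. The precision is limited by 3 arrays per group. On data simulated from the measured levels and spreads of 36062 probes, 10% of 100 probes changed by 0.5, 92% of 50 changed by 1 and 100% of 50 changed by 2 (log2) were recovered, with 7 false calls. The changed probes were all drawn from the brighter part of the probes. Noise was normal and independent between probes and arrays, with no shift of a whole array. These rates hold for that setting and need not hold for the measured arrays.

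The genes, lists and tests were chosen with earlier results of these data known. Every member was named, together with Ucp1, Txnip and, from each pathway list, at most 4 called genes by fold change or else the 2 with the smallest p; marker lists were given by counts and sums, with their called genes named; a gene of a list was its brightest probe. The 13 lists held 164 entries, of which 151 were measured. Symbols of the 8 genes matched RefSeq, GRCm38.p6, which also gave the promoters; TGANTCA was added after those sequences were seen. Alternatives were quantile normalization, cyclic loess, an offset of 0.171 before log2, the brighter part of the probes, probes with all values, no intensity trend, a replicate block and each array left out. The other pairs of probes planned as an alternative could not be run, since each gene had 1 probe.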

Additional observations from a re-analysis of the deposited data

How the results depend on the processing

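Over all tested probes limma called 1021, of which 71.7% were lower in UCP1, against 44% after quantile normalization and 47.1% after cyclic loess. Leaving out 1 array gave 159 to 1894 calls, with the fewest without UCP1 array 3. The brighter part of the probes gave 2239, or 12.4% of its 18058 probes, against 2.83% of all tested probes. Of these calls 1716 were lower, 4 of them among the 8 thioredoxin and peroxiredoxin genes. Without the intensity trend 0 probes passed, with 4951 at an unadjusted p under 0.05, and 0 of the 8 thioredoxin and peroxiredoxin genes were called lower, with Txnrd2 at adjusted p = 0.206. Leaving out 1 array left between 0 and 4 of the 8 called lower (0 without UCP1 array 3, 1 without control array 1 or 2, 4 without UCP1 array 2). Over all tested probes 93 were called lower without UCP1 array 3, and 1499 without UCP1 array 2. Without control array 1 or 2 they numbered 200 and 272. Of the 8 genes 0 were called higher in any of the 13 alternatives. Txn2, Txnrd2, Prdx3, Srxn1 and Txn1 stayed below 0 in each of them. Prdx1 turned to 0.16 after quantile normalization and 0.11 after cyclic loess, Prdx2 to 0.28 and 0.19 under these, and Txnrd1 to -0.05 without control array 3. Over the arrays left out in turn, Prdx2 ranged between -0.22 and 0.066 (above 0 without UCP1 array 3) and Txnrd1 between -0.060 and 0.14 (below 0 without UCP1 array 2 and control array 3); the cause was not tested. Txnip turned to 0.058 after quantile normalization and 0.055 after cyclic loess. With the replicate block 776 probes and 2 of the 8 genes passed. Same-numbered arrays had correlations of deviations of -0.24, -0.01 and 0.10 over 18032 probes, so the numbers were not taken to pair the arrays. The pair shifts kept their sign under all alternatives run, between -0.89 and -0.71 for the reductases, -0.58 and -0.28 for the peroxiredoxins and -0.58 and -0.23 for the thioredoxins. The number of arrays limits what differences could be shown, and the 99th percentile of intensity was lowest on UCP1 array 3 (185, against 223 to 279 on the other arrays).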

Other observations

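Thiol peroxidases of the secretory pathway were chosen after their values were seen. Prdx4, the peroxiredoxin of the endoplasmic reticulum, read 39.8, 37.5 and 33.9 on the UCP1 arrays, against 32.5, 30.0 and 29.2 on the control arrays, with no overlap. Its log2 change was 0.28 ± 0.118 (SE; limma, adjusted p = 0.252), and it passed after quantile normalization at 0.43 (adjusted p = 0.0266) and after cyclic loess at 0.44 (adjusted p = 0.0226). Gpx8, in the same compartment, rose as given above, while Gpx7, also there, read 5.98, 6.63 and 6.33 on the UCP1 arrays, against 9.32, 8.48 and 7.60 on the control arrays (log2 change -0.42, adjusted p = 0.0798). A difference between compartments was not tested.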
